A study of Mus musculus with 6 samples.

Results

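Surface genes by which red pulp and other resident macrophages are recognised were followed in heme-treated bone marrow cultures. The list of 6 genes comprised Treml4, Vcam1, Cd163, Siglec1, Adgre1 and Itgad, taken by name from 19936 genes that had a probe set of their own. Where a gene had several probe sets, that of highest mean level stood for it, which mattered for Itgad alone, since the other members had 1 probe set each. Bone marrow from Spic(igfp/igfp) mice, whose altered Spic gene was thus present in heme and vehicle cultures alike, was grown with 20 ng/ml GM-CSF. The labels do not describe the content of the igfp allele. On day 6 the medium was given heme (80 µm in the labels, taken to mean µM) or its vehicle, a salt solution with ammonium hydroxide. Floating cells were discarded and adherent cells were collected 6, 24 or 72 h later, with 1 array for each of the 6 combinations of treatment and time. No label says if different mice or separate dishes supplied the arrays. The question posed by the title of the series is how heme acts on monocytes as they become macrophages that recycle iron.

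Red pulp macrophages of the spleen engulf aged red blood cells, break down their heme and return the iron to the blood. Their development requires the transcription factor SPI-C, and heme releases the Spic gene from the repressor BACH1. On sections and by cytometry these cells are known by F4/80, VCAM1, CD163 and the integrin CD11d, and by the receptor TREML4, while CD169 marks macrophages that line the marginal zone and those of bone marrow.

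Of the 6 markers, Treml4 rose with heme, Siglec1 fell, and Adgre1, Cd163 and Itgad did not pass the test. Vcam1 was not tested. All levels are log2 values, and 5.37, the median of all deposited values, served as the level filter: no value below it was shown to lie above background. Siglec1 and Adgre1 lay above it on all 6 arrays and Treml4 on 4. Cd163 and Itgad reached it on 1 array each, with heme at 72 h and at 24 h, and entered the test through that array, whereas Vcam1 reached it on 0. The members and the lists below were chosen with earlier results of these data known, so counts of calls among them are no separate support. Over the 3 time points, limma with treatment and time as terms called 1 of the 5 tested members higher and 1 lower. Of the 11516 genes kept, 1.13% were called higher and 0.59% lower (1.72% in either direction). With 1 array for each combination, the error in this fit starts from the spread of the treatment difference across the 3 times, which are not replicates. It is then moderated by limma towards the spread of other genes, with 7.17 prior against 2 residual degrees of freedom. The cultures were measured in bulk, so a change in the number of cells bearing a marker and a change in RNA per cell cannot be told apart.

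**Figure D1:**
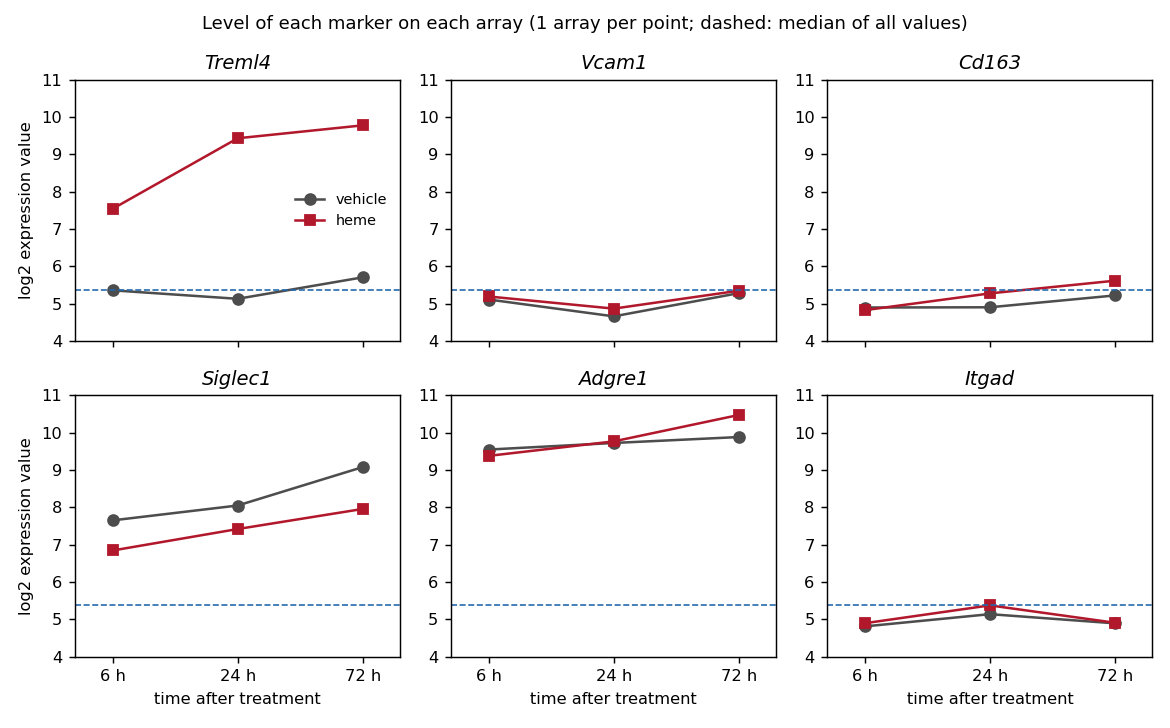
Log2 expression value (vertical axis) of each marker at 6, 24 and 72 h (horizontal axis) with vehicle (circles) and heme (squares), 1 array per point, with the level filter of 5.37 dashed. The heme line of Treml4 runs from 7.54 to 9.78 above a vehicle line between 5.13 and 5.71, the heme line of Siglec1 runs below its vehicle line, and Vcam1, Cd163 and Itgad stay near or under the dashed line.

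Treml4 (probe set 10445758; chromosome 17, 48264200 to 48275607, GRCm38.p6) encodes a receptor of the TREM-like family that binds dead cells and is found on splenic macrophages and some dendritic cells. With vehicle its levels at 6, 24 and 72 h were 5.36, 5.13 and 5.71. With heme they were 7.54, 9.43 and 9.78. All 3 heme arrays lay above all 3 vehicle arrays, a pattern seen in 5.4% of the genes kept. The vehicle arrays at 6 and 24 h were under the level filter. With those 2 levels set to the filter, heme was at least 4.49-fold higher at 6 h and at least 16.7-fold higher at 24 h, and at 72 h, where both levels were measured, it was 16.8-fold higher. Increases of 2-fold or more were found in 0.964%, 1.42% and 1.25% of the genes at 6, 24 and 72 h. With the bounds the mean difference was at least 3.43 on the log2 scale, without a test. The measured mean difference was 3.52 ± 1.16 (SD, n = 3 time points). Its SE was 0.34 (limma, Benjamini-Hochberg adjusted p = 0.00154), from a fit that includes the 2 vehicle levels below the filter. This SE and p-value use the moderated error: the residual SD of Treml4 was 0.82 before moderation and 0.42 after. Only 2 of the 11516 genes kept had a larger mean difference. Leaving out the 24 h pair lowered the mean to 3.13 (limma, adjusted p = 0.0743). Without the time term the adjusted p was 0.0854, the highest of the 13 alternatives. The lowest, 5.15e-24, came from limma without the 6 h pair. That fit has 1 residual and 46.9 prior degrees of freedom, so its error comes almost wholly from other genes and the value is no measure of strength.

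The order of Treml4 levels put the vehicle arrays lowest, then heme at 6 h, then heme at 24 and 72 h. The vehicle arrays at 6 and 24 h were under the level filter, so these 2 have no order. Neighbours within the vehicle arrays, and the pair of later heme arrays, were separated by measured gaps of 0.23 to 0.35. These were less than the moderated residual SD of 0.42. The step from the highest vehicle array, at 72 h, to heme at 6 h (1.84) exceeded this SD. So did that from 6 to 24 h of heme (1.89). From 6 to 72 h Treml4 was higher by 2.24 with heme. With vehicle the measured change was 0.35, from a 6 h level below the filter. The change common to both treatments, 1.29, missed the threshold (limma, adjusted p = 0.118), though not after median-centring (adjusted p = 0.0374). Whether the change with time differed between treatments could not be tested, as no residual degrees of freedom would be left.

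**Figure D2:**
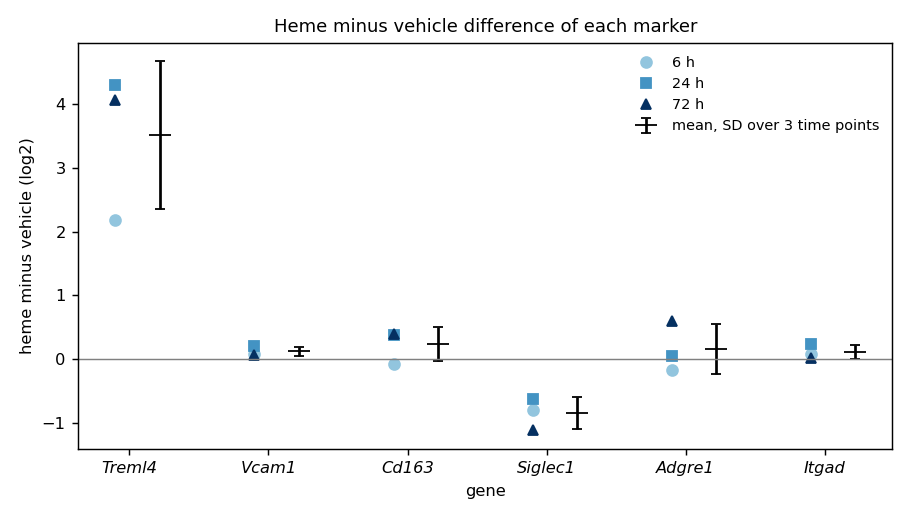
Heme minus vehicle difference on the log2 scale (vertical axis) for each marker at 6 h (circles), 24 h (squares) and 72 h (triangles), with the mean and SD over the 3 time points beside them. Treml4 lies between 2.18 and 4.30, Siglec1 between -1.12 and -0.63, and the other 4 markers lie between -0.17 and 0.59.

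RefSeq's promoter table, which gives 250 bases before and 50 after a transcript start, held 2 of the 6 members, Treml4 and Cd163. Both stretches are on the plus strand of GRCm38.p6, start with the window and stop where the annotated gene begins. They are shown because one belongs to the marker that rose most and the other to a marker that stayed near the level filter. Capitals mark a PU box, the ETS factor motif GAGGAA read on the opposite strand.
Treml4, chr17:48264045-48264199: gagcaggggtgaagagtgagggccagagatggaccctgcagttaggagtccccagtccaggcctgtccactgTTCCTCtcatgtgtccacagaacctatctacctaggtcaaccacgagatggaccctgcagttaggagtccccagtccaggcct
Cd163, chr6:124304401-124304635: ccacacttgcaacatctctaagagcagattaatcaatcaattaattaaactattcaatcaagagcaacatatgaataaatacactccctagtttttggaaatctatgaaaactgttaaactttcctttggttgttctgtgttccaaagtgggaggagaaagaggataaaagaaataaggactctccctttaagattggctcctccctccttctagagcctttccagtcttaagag
The Treml4 window held the PU box letters 2 times, at -178 and -87 from the transcript start, and the Cd163 window 0 times. The box at -87 lies past the start of the annotated gene, outside the printed stretch. Searched on both strands, GAGGAA occurred in 28.3% of 32851 windows of the same length. The core of the antioxidant response element, TGACNNNGC, and the AP-1 site TGANTCA were found in 0 of these 2 windows, against 12.4% and 7.81% of all windows. A run of 40 bases, whose second copy ends past the printed stretch, occurs 2 times in the Treml4 window with starts 91 bases apart. The 2 PU boxes are 91 bases apart as well. Such matches describe letters and do not show that a factor binds.

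Among TREM receptors and their adaptors, Treml4 itself included, 7 genes were kept. Treml4 was the 1 that rose, and 0 fell, against 1.13% and 0.59% of all genes kept. The median difference of the list was -0.15, 0.19 and -0.06 at 6, 24 and 72 h, against -0.10, -0.02 and 0.03 over all genes kept. Trem1, which amplifies inflammatory signals in myeloid cells, differed by 0.03, 1.70 and 1.02 at the 3 times and did not pass (limma, adjusted p = 0.168). Its vehicle levels at 24 and 72 h, 4.51 and 4.19, and its heme level at 72 h, 5.21, were below the filter, so that only at 6 h were both levels measured. Tyrobp, the adaptor DAP12 through which TREM receptors signal, was high on all arrays, from 11.99 to 12.48, with differences of -0.10, -0.17 and -0.12 (limma, adjusted p = 0.848). Hcst, the adaptor DAP10, differed by -0.15, -0.04 and -0.24 (limma, adjusted p = 0.835).

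Siglec1 (10487823; chromosome 2, 131067801 to 131086778) encodes CD169, a receptor that binds sialic acid on other cells. The vehicle levels were 7.65, 8.05 and 9.08 at 6, 24 and 72 h. The heme levels were 6.85, 7.42 and 7.96. Heme was lower at each time, as in 17.4% of the genes kept, yet the groups overlapped, because the 72 h heme array lay above the 6 h vehicle array. Siglec1 was lower with heme by 1.75-fold at 6 h, 1.55-fold at 24 h and 2.17-fold at 72 h, and decreases of 2-fold or more at 72 h were found in 0.608% of genes. The mean difference was -0.85 ± 0.25 (SD, n = 3 time points) with an SE of 0.15 (limma, adjusted p = 0.0239). The call was lost when the 24 h pair was left out (adjusted p = 0.24), when the 72 h pair was (adjusted p = 0.0772), after cyclic loess (adjusted p = 0.0507) and without the time term (adjusted p = 0.854). Over the 13 alternatives the mean difference stayed between -0.96 and -0.72.

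Siglec1 was also the member whose level changed with time in both treatments. From 6 to 72 h it rose by 1.43 with vehicle and 1.11 with heme, by 1.27 over both with an SE of 0.18 (limma, adjusted p = 0.0031), the 1 call among the 5 members tested. Over the genes kept, 3.06% rose and 3.53% fell from 6 to 72 h (6.59% in all). From 6 to 24 h the change of 0.49 in Siglec1 missed the threshold (limma, adjusted p = 0.288), as did those of the other 4 members tested, against 0.226% of genes that rose and 0.373% that fell (0.599% in all). Its lowest level was heme at 6 h and its highest vehicle at 72 h. Over the same interval 6 of 9 neutrophil markers fell and 0 rose, with summed linear levels of 10100, 2050 and 1100 with vehicle and 11700, 7890 and 1660 with heme at 6, 24 and 72 h, while 3 of 12 core macrophage genes rose. The part of these cells in the change of Siglec1 with time was not tested. The 72 h heme and 24 h vehicle arrays differed by 0.09, less than the moderated residual SD of 0.18, and all other neighbours in the order differed by more.

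Members of the Siglec family moved in both directions. Of 9 kept, 1 rose, 1 fell, which was Siglec1 itself, and 7 did not pass, with list medians of -0.23, 0.11 and -0.20. Over all genes kept, 1.13% rose and 0.59% fell. Siglece, an inhibitory Siglec of myeloid cells, rose: its vehicle levels were 5.91, 5.55 and 5.81 and its heme levels 6.42, 7.27 and 7.71, a mean difference of 1.37 ± 0.76 (limma, adjusted p = 0.0276). It lost the call in the absence of the 24 h pair (adjusted p = 0.446) or the 72 h pair (adjusted p = 0.0729), and without the time term (adjusted p = 0.273). Siglecf, known from eosinophils and alveolar macrophages, differed by -0.71, -0.40 and -1.13 (limma, adjusted p = 0.0636). It passed after median-centring, with the filter at the 60th percentile and without the 6 h pair (adjusted p = 0.021, 0.0476 and 0.00582). The last of these fits takes its error almost wholly from other genes (46.9 prior against 1 residual degree of freedom). Siglecf did not pass under the other alternatives. Among these were the fits without the 24 h pair, without the 72 h pair and without the time term (limma, adjusted p = 0.289, 0.19 and 0.273).

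**Figure D3:**
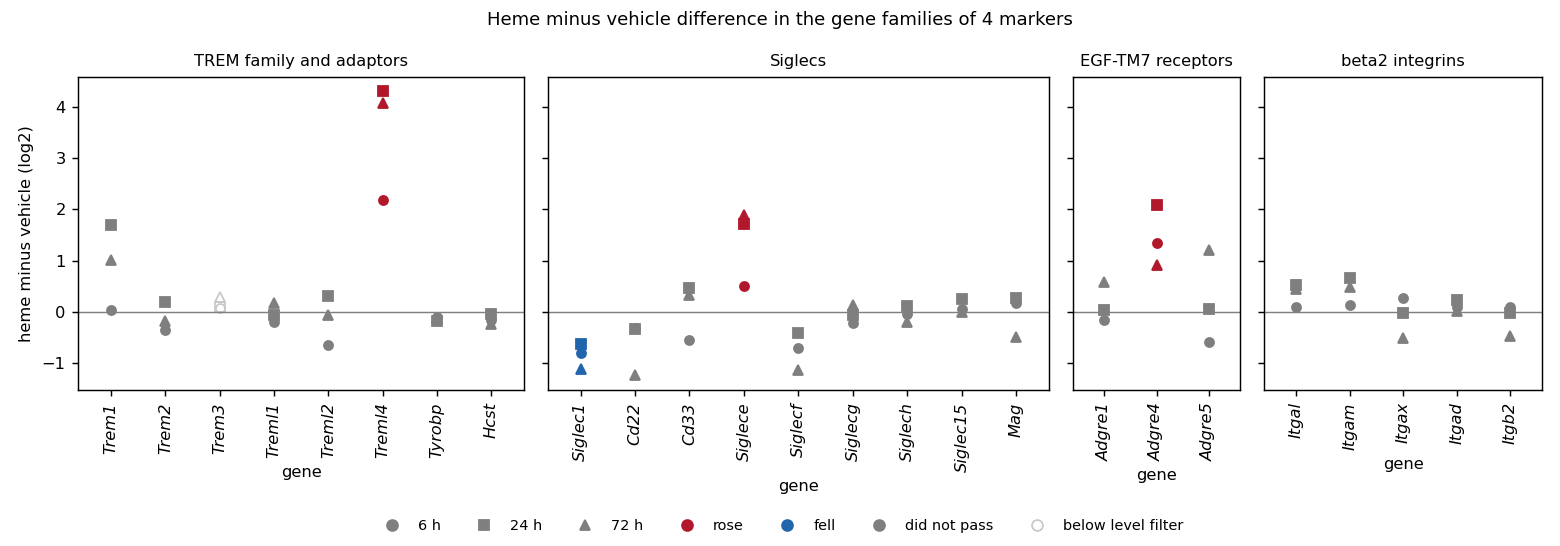
Heme minus vehicle difference on the log2 scale (vertical axis) for each gene of the TREM, Siglec, EGF-TM7 and beta2 integrin lists at 6 h (circles), 24 h (squares) and 72 h (triangles). Genes that rose are red, those that fell blue, those that did not pass dark grey, and a gene below the level filter is open; Treml4, Siglece and Adgre4 are red and Siglec1 is blue.

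Adgre1 (10446282; chromosome 17, 57358581 to 57483529) encodes F4/80, an adhesion receptor with EGF-like domains and 7 membrane passes that is used to stain mouse macrophages. Vehicle levels were 9.55, 9.73 and 9.89 and heme levels 9.38, 9.77 and 10.48 at 6, 24 and 72 h. The groups overlapped, and only the heme array at 72 h stood apart from its neighbour in the order by more than the moderated residual SD of 0.21. The differences were -0.17, 0.04 and 0.59, a mean of 0.15 ± 0.39 (SD, n = 3 time points) with a 95% interval from -0.22 to 0.53 (limma, adjusted p = 0.871). Without the 72 h pair the mean was -0.06. From 6 to 72 h Adgre1 was higher by 1.10 with heme and 0.34 with vehicle, and the change over both did not pass (0.72; limma, adjusted p = 0.0814).

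The related receptor Adgre4 (10445953), known as F4/80-like-receptor, rose with heme. Its levels were 4.94, 7.15 and 8.81 with vehicle and 6.28, 9.24 and 9.73 with heme at 6, 24 and 72 h. The 6 h vehicle array was below the filter. With it set to the filter the mean difference was at least 1.30, without a test. The measured mean difference was 1.45 ± 0.59 (limma, adjusted p = 0.0107). It did not pass without the 24 h pair (adjusted p = 0.169) or without the time term (adjusted p = 0.977). Adgre5, which encodes CD97, differed by -0.60, 0.06 and 1.21 (limma, adjusted p = 0.892). Of the 3 genes of this list 1 thus rose and 0 fell, against 1.13% and 0.59% of all genes kept.

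Vcam1 (10501608; chromosome 3, 116110020 to 116129688) encodes an adhesion molecule that binds the integrin VLA-4 and is a defining surface protein of red pulp macrophages. Its levels were 5.11, 4.66 and 5.28 with vehicle and 5.19, 4.87 and 5.35 with heme at 6, 24 and 72 h, all under the level filter. Levels of this kind have no order and no fold change. Fitted without a level filter, the measured difference was 0.12 (limma, adjusted p = 0.914). Chains of its ligand were expressed: Itga4 ran from 7.41 to 9.12 over the 6 arrays, with differences of -0.31, -0.71 and -0.01 (limma, adjusted p = 0.517), and Itgb1 from 9.54 to 9.92. Itgb7, an integrin chain that also pairs with Itga4, differed by -0.61, -0.42 and 0.21 (limma, adjusted p = 0.707). The adhesion molecule Icam1 differed by 1.25, 0.67 and 0.01 (limma, adjusted p = 0.25). Of 6 genes kept among VCAM1 partners and vessel adhesion molecules, 0 passed the test, and 4 more were below the filter.

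Cd163 (10541644; chromosome 6, 124304636 to 124330529) encodes the scavenger receptor that takes up haemoglobin bound to haptoglobin. Its levels were 4.90, 4.91 and 5.22 with vehicle and 4.83, 5.28 and 5.62 with heme at 6, 24 and 72 h. Of these only the 72 h heme array was above the filter, which leaves a difference of at least 0.24 there, or at least 1.18-fold. With levels below the filter set to it, the mean difference was 0.08. The fit on the measured values (limma, adjusted p = 0.707) rests on 5 levels not shown to be above background. Among proteins with scavenger receptor cysteine-rich domains, 0 of 8 kept passed the test and 3 were below the filter. Marco, a receptor for particles and bacteria, had levels of 7.96, 6.97 and 6.06 with vehicle and 8.88, 9.12 and 10.90 with heme, and did not pass (2.64 ± 2.01; limma, adjusted p = 0.055). Marco passed after median-centring, with the filter at the 60th percentile, with probe sets averaged, and on leaving out the 6 h or the 72 h pair (adjusted p = 0.00305, 0.0339, 0.0447, 8.65e-15 and 0.0186). Without the 6 h pair the error comes almost wholly from other genes (46.9 prior against 1 residual degree of freedom). Marco did not pass under the other alternatives. Among these were the fits without the 24 h pair, without the time term and with robust eBayes (limma, adjusted p = 0.445, 0.338 and 0.476). Lgals3bp, a secreted glycoprotein, differed by -0.30, 0.29 and -0.58 (limma, adjusted p = 0.828).

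Itgad (10557925; chromosome 7, 128173933 to 128205504) encodes CD11d, the alpha chain that pairs with the beta2 chain on red pulp macrophages. Its levels were 4.81, 5.14 and 4.90 with vehicle and 4.90, 5.38 and 4.91 with heme at 6, 24 and 72 h. The 24 h heme array exceeded the filter by 0.003 and the other 5 were below it, so that with those set to the filter the mean difference was 0.001. The fit on the measured values (limma, adjusted p = 0.886) has the same limit as that of Cd163. A second probe set (10557928) lay between 4.26 and 4.70 on the 6 arrays, below the filter throughout. Partners of the family were expressed. Itgb2, the beta2 chain, ran from 11.49 to 11.96 and Itgam, which encodes CD11b, from 9.54 to 10.48, with mean differences of -0.13 and 0.43 (limma, adjusted p = 0.886 and 0.286). Itgal, the alpha chain of LFA-1, differed by 0.09, 0.53 and 0.45 (limma, adjusted p = 0.406). Itgax, which encodes CD11c, ran from 10.5 to 11.1 and differed by 0.27, -0.03 and -0.50 (limma, adjusted p = 0.933). Of 5 beta2 integrin genes 0 passed the test.

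Genes with profiles most like a member were sought by the root mean square difference between profiles over the 6 arrays, each centred on its own mean, among 10800 other named protein-coding genes kept. For Treml4 the nearest were Spic (0.53 on the log2 scale), the chemokine gene Ppbp (0.71) and malic enzyme Me1 (0.78), and all 3 rose with heme. A choice by likeness to Treml4 on these same arrays favours genes that rose, so these calls give no separate support. The same holds for falls among genes like Siglec1. Their measured mean differences were 3.47 for Ppbp and 2.27 for Me1 (limma, adjusted p = 0.02 and 0.00096), with the 24 h vehicle array of Ppbp and all 3 vehicle arrays of Me1 below the filter. Ppbp and Me1 did not pass with the 24 h pair left out (adjusted p = 0.383 and 0.0743), nor Ppbp without the time term or with robust eBayes (adjusted p = 0.348 and 0.351). Spic rose by 3.88 ± 0.47 (limma, adjusted p = 2.55e-05). Its heme levels were 9.53, 10.49 and 10.17 at 6, 24 and 72 h. For Siglec1 the nearest were the adhesion molecule Cadm1 (0.14), the scaffold protein Slc9a3r2 (0.16) and the ubiquitin ligase subunit Fbxo32 (0.18), of which Slc9a3r2 fell with heme (limma, adjusted p = 0.0394). Slc9a3r2 missed the threshold on leaving out the 24 h or the 72 h pair (adjusted p = 0.38 and 0.104), after cyclic loess (0.0649), with an offset of 16 (0.0544) and without the time term (0.718). For Adgre1 they were the signalling adaptor Tifa (0.07), the purine synthesis enzyme Adss (0.07) and thromboxane synthase Tbxas1 (0.08). The distances describe these 6 arrays and carry no test; genes with a wide range, like Treml4, have larger distances.

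**Figure D4:**
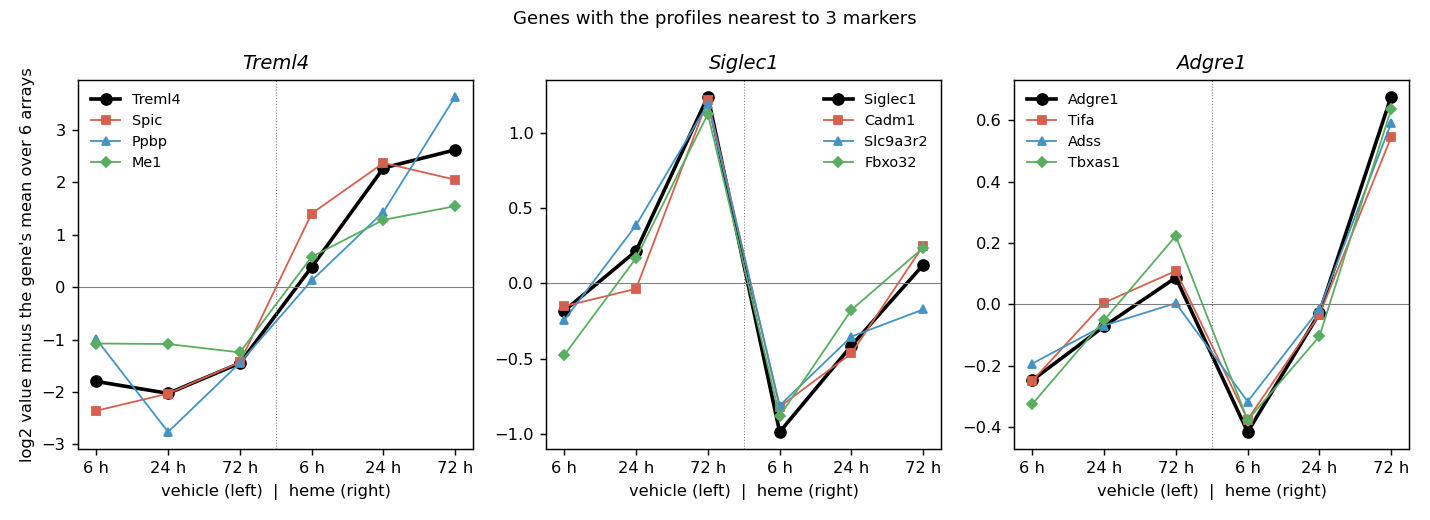
Log2 value minus each gene's mean over the 6 arrays (vertical axis) for Treml4, Siglec1 and Adgre1 (black) and the 3 genes nearest to each, with vehicle on the left and heme on the right of each panel at 6, 24 and 72 h. Treml4 and the 3 genes nearest to it lie higher on all 3 heme arrays than on all 3 vehicle arrays. The genes nearest to Siglec1 share its peak at 72 h of vehicle.

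Other genes of red pulp macrophages moved in both directions: of 15 kept, 4 rose, 1 fell and 10 did not pass, with list medians of 0.03, 0.01 and 0.06. Over all genes kept, 1.13% rose and 0.59% fell. The list was chosen with earlier results of these data known, so its count is no separate support. Besides Spic, the heme-degrading enzyme Hmox1 rose by 2.59 ± 0.28, the iron exporter Slc40a1 by 2.31 ± 0.50 and the heme transporter Slc48a1 by 1.56 ± 0.44 (limma, adjusted p = 8.86e-05, 5.65e-04 and 0.00364). Pparg, a nuclear receptor of lipid handling, fell by 0.74 on the log2 scale (limma, adjusted p = 0.0287). Slc48a1 and Pparg did not pass without the 24 h pair (adjusted p = 0.115 and 0.316), nor did Pparg without the 72 h pair (adjusted p = 0.0826). Without the time term Slc40a1, Slc48a1 and Pparg missed the threshold (adjusted p = 0.348, 0.0584 and 0.127). Cd5l, a secreted protein of resident macrophages, was below the filter on all arrays. Of 15 surface markers of resident macrophages at other sites, 6 were at or above the filter on all arrays, among them Mrc1 (9.44 to 10.55) and Car4 (8.48 to 12.11). Another 7 were below it on all arrays, among them Timd4, Vsig4, Clec4f and Folr2, and 0 of the 8 kept passed the test. Their medians were -0.14, -0.28 and 0.33. Besides Marco and Siglecf, the fractalkine receptor Cx3cr1 differed most, by 0.10, 0.23 and 1.74 (limma, adjusted p = 0.398).

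The label of macrophage cultures was checked against markers. All 12 core macrophage genes exceeded the filter on all arrays, with Lyz2 and Sirpa highest. Their summed linear level was 27400 to 30900 with vehicle and 29700 to 31300 with heme, and 1 of 12 rose, the lipopolysaccharide co-receptor Cd14 (1.09 ± 0.26; limma, adjusted p = 0.00825). For this and the next lists, the shares over all genes kept were 1.13% higher and 0.59% lower with heme. Dendritic cell markers summed to 414 to 486 with vehicle and 548 to 778 with heme. Of 5 kept, 1 rose, the chemokine receptor Ccr7 (1.16 ± 0.59; limma, adjusted p = 0.0279), and Batf3 (1.03, 0.50 and 0.25) did not pass. Ccr7, Batf3 and Cd83 (6.3 to 6.9) were above the filter on all arrays, whereas Flt3, Zbtb46 and Cd209a were below it on all arrays. Neutrophil markers summed to 1100 to 10100 with vehicle and 1660 to 11700 with heme, and 0 of 9 kept passed. S100a8 differed by 0.28, 1.97 and 0.71 and S100a9 by 0.05, 2.13 and 1.05, and both fell from 6 to 72 h, with log2 changes of -2.34 and -4.33 (limma, adjusted p = 0.00302 and 0.000349). Monocyte markers (2 of 5 with a probe set) summed to 1320 to 1850 and 1150 to 1540, with Ccr2 and F13a1 not passing. Stromal markers, led by Dcn and Col1a2, summed to 436 to 652 and 363 to 878, and endothelial ones, led by Eng and Kdr, to 322 to 351 and 293 to 301, with 0 past the test. Erythroid and megakaryocyte markers summed to 761 to 1120 and 1460 to 5540 because of Pf4, which rose by 1.88 ± 0.79 (limma, adjusted p = 0.00738), while the integrin chain Itga2b ran from 5.08 to 5.56 and did not pass, and Klf1 and Alas2 were below the filter. Eosinophil, basophil and mast cell markers, led by Prg2 and Epx, summed to 129 to 730 and 138 to 393 with 0 of 2 kept past the test, and 0 of 5 lymphocyte markers, Cd3e and Nkg7 among them, reached the filter (sums of 78.3 to 114 and 101 to 104). Cd14, Ccr7 and Pf4 did not pass without the 24 h pair (adjusted p = 0.226, 0.302 and 0.218) or without the time term (adjusted p = 0.371, 0.394 and 0.348). The part of other cells in the change of Treml4 and Siglec1 was not tested.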

How the data were processed

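The authors deposited log2 expression values of 35556 probe sets on 6 single-colour arrays, which per the labels' design text underwent RMA and quantile normalization with the ArrayStar software. No version is stated there, and no scanner file was used. Array medians ran from 5.34 to 5.45. Probe sets naming 1 gene (21789) were assigned through the platform annotation and GRCm38.p6 gene identifiers, and the one with the highest mean stood for its gene. Genes whose highest array reached the median of all values were kept.

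Heme minus vehicle was tested with limma 3.58.1 in R 4.3.3 (lmFit, eBayes, two-sided), with treatment and time as terms and Benjamini-Hochberg adjustment over the 11516 genes kept, leaving 2 residual degrees of freedom. Differences at 1 time have no replicate and no test. Heme and vehicle arrays were paired by the times in the labels, and their deviations from the mean of each treatment correlated within a pair (0.562, 0.215 and 0.531). The members and lists were chosen with earlier results of these data known. The text names all members, the list genes past the test, the 3 with the largest mean difference per list, cell markers past the test or at the 2 highest means, and the 3 nearest profiles per member with a range of at least 1. Further genes (Tyrobp, Itgb1, Itgax, Cd5l, Mrc1, Car4, Timd4, Vsig4, Clec4f, Folr2, Cd83, Flt3, Zbtb46, Cd209a, Klf1, Alas2) were named after their values were seen. Summed marker levels are sums of 2 to the power of the log2 value.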

Additional observations from a re-analysis of the deposited data

Results flagged for a closer look

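Adgre1 and Cd163 had heme minus vehicle differences of opposite sign at different time points. For Adgre1 the difference was -0.17 at 6 h and 0.59 at 72 h, and for Cd163 it was -0.072 at 6 h and 0.395 at 72 h, with 1 pair of arrays at each time. For Cd163 both 6 h levels lay below the level filter. No test of this change between times was possible.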

How the results depend on the processing

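The 5 tested differences between heme and vehicle kept direction and side of the threshold under the alternatives, with these exceptions. Without the time term, Treml4 (3.52) and Siglec1 (-0.85) lost their calls, and Siglec1 (-0.82) lost it after cyclic loess. Leaving out 1 time pair gave 3.13 to 4.19 for Treml4 and -0.96 to -0.72 for Siglec1, and the calls were lost without the 24 h pair (both genes) and without the 72 h pair (Siglec1). Adgre1 and Cd163 did not pass the test under any alternative that tested them, and the mean of Adgre1 turned to -0.06 without the 72 h pair. Itgad had no test after cyclic loess, with the filter at the 60th percentile or with averaged probe sets, and Cd163 none with the 60th percentile, as they were then below the filter. Vcam1 at 6 h changed from 0.08 to -0.045 after a second quantile normalization and to -0.03 after median-centring, all below the filter, and Itgad, also below it, reached -0.045 at 6 h after the second quantile normalization and -0.08 at 72 h with averaged probe sets. Median-centring moved the median 6 h difference of all genes from -0.10 to -0.22.

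For time, Treml4 from 6 to 72 h (1.30) passed after median-centring. In vehicle and heme alone the 72 h minus 6 h changes were 0.35 and 2.24 for Treml4, 0.32 and 0.79 for Cd163 and 0.34 and 1.10 for Adgre1, and the 24 h minus 6 h changes -0.23 and 1.89 for Treml4 and 0.006 and 0.45 for Cd163. Both vehicle levels of Treml4 at 6 and 24 h and all Cd163 levels but heme at 72 h lie below the filter, so differences between those levels have no direction.

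Genes past the threshold numbered 130 up and 68 down. Without the time term there were 17 and 1, after cyclic loess 115 and 36 and after median-centring 162 and 117. The share called up was 76.2% with cyclic loess and 58.1% with median-centring, against 65.7%. Leaving out 1 time pair gave 11 to 322 up and 1 to 199 down, with the most of both without the 6 h pair. Without the time term the lists of TREM receptors, Siglecs and EGF-TM7 receptors had 0 genes past the threshold and other red pulp genes 2. Siglecs had 1 after cyclic loess. Scavenger receptors had 1 after median-centring, with the 60th percentile and with averaged probe sets, and markers of other sites 2, 2 and 1. Leaving out a pair gave 0 to 2 TREM genes, 0 to 4 Siglecs, 0 to 1 VCAM1 partners, scavenger receptors and EGF-TM7 receptors, 0 to 3 markers of other sites and 3 to 6 other red pulp genes. Signal near background limits Vcam1, Cd163 and Itgad.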
